A study of Mus musculus with 12 samples.

Results

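The genes Zdhhc9, Utp14a, Aifm1, Rbmx2 and Enox2 lie in this order along a short stretch of the mouse X chromosome, and their allele use was read from RNA of mouse fibroblasts and of cells after reprogramming. The members were selected on measured values, the reference shares of Utp14a and Rbmx2 described below, and comprise single-base variants covered by at least 20 reads and annotated with 1 of the 5 gene names, which gave 79 of the 6478 such sites and 5 of the 399 genes in all tables. RNA was sequenced as poly(A) paired-end libraries from cells reprogrammed with the vector SeVdp(fKOSMaB), a persistent Sendai virus vector carrying reprogramming factors, with 30 nM Shield1 in 2 courses (MidK1 at days 35, 52 and 56; MidK2 at days 18, 22, 29 and 36) or without Shield1 in 1 course (LowK at days 35, 52 and 56). Shield1 is a small ligand that keeps proteins with a destabilising domain from being degraded. Mouse embryonic fibroblasts at day 0, with no vector and no agent, gave the libraries MEF1 and MEF2. Each course and day was 1 library, so every p-value below compares the reads of 2 libraries and not 2 conditions.

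In female mammals 1 X chromosome of each cell is silenced, and most of its genes then give RNA from the active chromosome alone. Genes that escape this silencing give RNA from both chromosomes, and reprogramming to pluripotency can return a silenced X to activity. Where the chromosomes differ by a base, reads with each base count the RNA of each chromosome. The reference share used here is the percentage of reads at a variant site that did not carry the listed variant base, so it counts RNA of the chromosome with the mm10 base. Utp14a was taken into the set as a gene already read from both alleles in fibroblasts, and Utp14a and Rbmx2 were known to differ between MidK1 and LowK at day 56. Results that use the fibroblast share of Utp14a, or the day 56 values of Utp14a or Rbmx2 in MidK1 or LowK, are therefore described and not tested, as is every member at MidK1 against LowK on day 56.

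Utp14a encodes a nucleolar protein of the small-subunit processome, which builds the small ribosomal subunit, and spans chrX:48256862-48282453 on the plus strand (mm10). It had 25 sites, 15 of them coding, 3 in UTRs and 7 intronic. Zdhhc9, a palmitoyltransferase that attaches palmitate to proteins such as Ras, spans chrX:48171969-48208878 on the minus strand and had 21 sites, 19 of them in UTRs and 2 coding. Aifm1, the mitochondrial flavoprotein apoptosis-inducing factor, spans chrX:48474944-48513563 on the minus strand and had 10 sites, 8 coding and 2 in the UTR. Rbmx2, an RNA-binding protein of the spliceosome, spans chrX:48695004-48710723 on the plus strand and had 15 sites, 10 coding and 5 in the UTR. Enox2, a cell-surface NADH oxidase, spans chrX:49009707-49288259 on the minus strand and had 8 sites, all coding. Measured from the start of Utp14a, the gene start of Zdhhc9 lay 48.0 kb upstream, that of Aifm1 257 kb downstream, that of Rbmx2 438 kb downstream and that of Enox2 1031 kb downstream.

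To show what was read, the surroundings of 1 or 2 sites per gene come first. Of the sites whose annotation names that gene alone, these had the most reads among those listed in the most libraries. They are given as 29 bases of the annotated transcript in mRNA direction with the reference base at the variant site in capitals. At Utp14a, sites that also name the antisense gene 9530027J09Rik and were listed in all 12 libraries had up to 1856 reads. The 2 Utp14a sites shown had 1444 and 1128. None of the windows, with either base, occurred in the transcript of another gene. The 2 Aifm1 windows overlap and share reads. Substitutions are written on the plus strand of mm10 with the reference base, the position and the variant base: Utp14a A48274902G and G48275100A, Zdhhc9 T48172138C and C48172229T, Aifm1 G48475702C and T48475709G, Rbmx2 G48709926A, and Enox2 G49023139T.
Utp14a A48274902G, coding: ggtgctgacgaggaAgaagccctcgttcc
Utp14a G48275100A, coding: gaggaagatgagttGttgaaggaattgga
Zdhhc9 T48172138C, UTR: tgctcgggacctgcActatttcagggaag
Zdhhc9 C48172229T, UTR: tcatctaagcccctGctcttccagcactt
Aifm1 G48475702C, coding: ggaaatcacaattcCtcccagcgcccctg
Aifm1 T48475709G, coding: aagcttcggaaatcAcaattcctcccagc
Rbmx2 G48709926A, coding: cggggactcattccGgcaggcacaggggg
Rbmx2 site in a repeat, coding: agaagtagaagtagGagtaggagtccaga
Enox2 G49023139T, coding: gaccgaatcaaagaCgacaatttacaggt

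The second Rbmx2 window holds the letters agtag 3 times, while none of the other windows shown holds them. Reads at this repeat site behaved unlike those at the other Rbmx2 sites and are treated separately below.

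Between 1507 and 3871 sites per library passed the coverage minimum, with total coverage of 138579 to 279031 reads and median coverage of 35 to 39. The median gene had a reference share of 2.16 to 19.02%. A site at which every read carries the reference base is not listed, so a share cannot reach 100%, and the lowest listed variant percentage was about 10 in the MidK1, LowK and MEF1 tables and 5 in the MidK2 and MEF2 tables. Sites with the highest reference shares were thus listed only in the MidK2 and MEF2 tables, and they raise some sums there. No molecular identifiers are described and nearby sites share reads, so all intervals cover counting error only. Site values at 20 to 24 reads, just inside the coverage minimum, numbered 61 with a pooled reference share of 26.4%, and the 91 values at 15 to 19 reads had 32.0%. A list of 7 X genes was taken as fibroblast markers (Bgn, Timp1, Plp2, Lamp2, Fhl1, Srpx and Gpc4). Whether each is particular to fibroblasts was not tested, and Plp2 and Lamp2 were listed in every library. The genes of this list took 172 to 213 of every 10000 reads in MidK1, 211 to 321 in MidK2, 107 to 154 in LowK and 2474 to 2654 in MEF. Their reference share was 40.1 to 60.6% in MidK1, 28.3 to 53.8% in MidK2, 16.4 to 20.5% in LowK, and 4.65% in MEF1 and 2.57% in MEF2. Srpx was listed in MEF1 alone. Of the 7 genes, 4 to 6 were listed per MidK1 library, 5 or 6 per LowK library, and 6 in MEF2 and in each MidK2 library. Bgn was not listed in LowK at days 52 and 56. The amounts and shares thus cover unlike sets of genes. The part of remaining fibroblasts in the results was not tested.

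Utp14a was read about equally from both alleles in every library with Shield1. Its reference share in MidK1 was 49.3% at day 35, 48.3% at day 52 and 49.2% at day 56. In MidK2 it was 48.4% at day 18, 46.6% at day 22, 49.0% at day 29 and 47.9% at day 36. LowK had 14.5%, 23.3% and 23.8% at days 35, 52 and 56, below the fibroblast values of 31.3% in MEF1 (95% Wilson interval 24.4 to 39.2) and 34.0% in MEF2 (29.0 to 39.3). In these sums all 7 Shield1 libraries lay above both MEF libraries, and all 3 LowK libraries below them. The sums cover unlike sites, 6 in MEF1, 7 in MEF2 and 10 to 16 in the other libraries. At G48278755T, the site with most reads, MEF1 had 18.5%, below the 25.2 and 27.0% of LowK days 52 and 56. How many other genes had this order was not counted.

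The Utp14a sites whose windows are shown separated MidK1 from LowK as the sum did. At A48274902G the shares were 48.2, 53.1 and 46.3% in MidK1, 52.8, 38.5, 53.3 and 44.0% in MidK2, 14.4, 20.8 and 25.0% in LowK, and 25.7% in MEF1 and 32.4% in MEF2. At G48275100A they were 50.4, 49.6 and 53.2% in MidK1, 45.1, 45.3, 51.4 and 38.8% in MidK2, 19.8, 20 and 19.3% in LowK, and 30.0% in MEF1 and 18.6% in MEF2. At G48275100A MEF2 lay below all 3 LowK libraries, unlike in the sum. At both sites, and at the other 4 sites in the sum that were listed in all 12 libraries, the highest LowK value was below the lowest MidK1 value. In gene sums, such an order of MidK1 and LowK was seen for 27.9% of 219 genes. The site with most reads, G48278755T, had 48.7, 43.6 and 52.8% in MidK1 and 11.6, 25.2 and 27.0% in LowK. A further 6 sites lie in exons of both Utp14a and the antisense gene 9530027J09Rik and were kept out of the Utp14a sums. They gave 51.5 to 57.1% in MidK1, 37.5 to 58.8% in MidK2, 21.6 to 26.5% in LowK, and 34.5% in MEF1 and 36.7% in MEF2, the same order of groups.

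Zdhhc9, the nearest member to Utp14a, had a reference share close to that of Utp14a in MidK1 and a much lower one in fibroblasts. Its share was 53.1%, 52.6% and 46.8% in MidK1, and 36.3%, 41.0%, 54.6% and 52.2% in MidK2. It was 11.8%, 23.3% and 19.7% in LowK, 5.39% in MEF1 and 26.7% in MEF2. The MEF2, LowK day 52 and MidK2 sums include sites that behaved differently: 4 of 14 MEF2 sites stood at 70% or more and 10 under 10%. Variants in under 10% of reads, which give the highest of these shares, were listed only in the MEF2 and MidK2 tables. The MEF2 and MidK2 sums are therefore not directly comparable with those of MidK1, LowK and MEF1. At the 2 sites listed in all 12 libraries, whose sequences are shown above, the share was 53.1, 45.8 and 44.0% in MidK1, 27.0, 30.4, 39.7 and 34.2% in MidK2, 11.8, 14.9 and 19.8% in LowK, and 4.69% in MEF1 and 2.08% in MEF2. There the 4 groups did not overlap, in the order MidK1, MidK2, LowK and MEF from high to low. How many other genes had this order of 4 groups was not counted. In the gene sums, 27.9% of 219 genes had all 3 MidK1 days above all 3 LowK days. One further UTR site was at 76.1 to 86.0% in all 6 libraries that listed it, MEF2 among them, and did not follow the group order.

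Aifm1 was read mostly from the variant allele throughout. Its reference share was 4.28%, 7.36% and 13.7% in MidK1, 6.26%, 12.03%, 7.65% and 8.81% in MidK2, 0.347%, 2.10% and 4.601% in LowK, and 3.17% in MEF1 and 9.22% in MEF2. The MEF2 and MidK2 day 36 values each rest on 1 site listed in that library alone, at 92.3% in MEF2 and 94.3% in MidK2 day 36. At sites listed in at least 6 libraries they were 2.16% in MidK2 day 36 and 1.12% in MEF2. The highest values, 13.7% in MidK1 day 56 (95% Wilson interval 10.1 to 18.3) and 12.03% in MidK2 day 22 (9.48 to 15.2), came from several sites: G48475702C stood at 13.8% and 16.0% in these libraries and T48475709G at 13.8% and 16.1%.

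Rbmx2 reads came increasingly from the reference allele along MidK1. Its share was 23.9%, 49.4% and 58.1% at MidK1 days 35, 52 and 56, and 21.8%, 29.3%, 22.0% and 29.0% at MidK2 days 18, 22, 29 and 36. LowK had 12.6%, 15.4% and 12.3%, and no Rbmx2 site was listed with enough reads in MEF1 or MEF2. The repeat site held 36.4 to 76.7% in all 10 libraries, LowK included, where every other listed site of LowK day 35 was at 0%. Without it the share was 17.7, 46.0 and 55.3% in MidK1, 16.2, 21.8, 17.7 and 24.3% in MidK2, and 0 of 175 reads (Wilson interval up to 2.15%), 3.59% and 7.82% in LowK. The sums of MidK2 days 18 and 36, with or without the repeat site, each include 1 site listed in that library alone, at 94.3 and 93.9%. Without the repeat site, the medians over sites in MidK2 were 6.90, 23.0, 9.29 and 21.3%.

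Sites within Rbmx2 also differed from one another in the same library. G48709926A, near the end of the coding sequence, had 6.52, 38.0 and 50.9% in MidK1, 5.36, 14.5, 6.67 and 7.58% in MidK2, and 0, 4.26 and 5.41% in LowK. In MidK1 day 56 the 9 sites ranged over 21.4 to 76.7%, and in MidK1 day 35 over 5.13 to 70%. The level of the gene thus depends on which sites are listed, while the order of the MidK1 days was the same at G48709926A as in the sum.

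**Figure D1:**
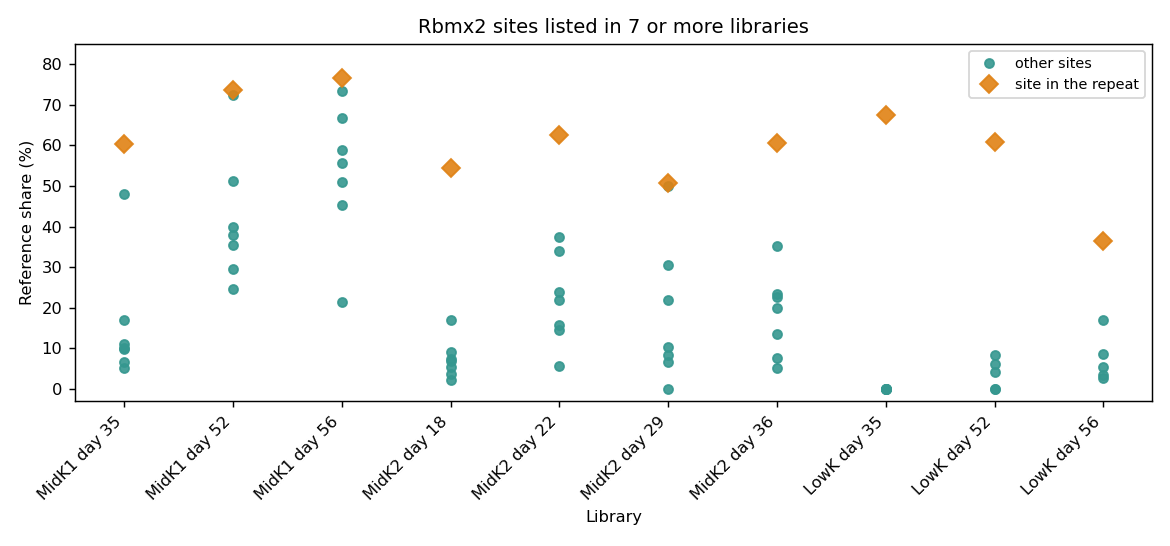
Reference share (%) of each Rbmx2 site listed in at least 7 libraries, with the libraries along the x axis and 1 point per site. The repeat site (diamonds) lies at 36.4 to 76.7% in all 10 libraries, while at the other sites LowK day 35 is at 0% and MidK1 day 56 between 21.4 and 73.5%.

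Enox2, the most distant member, was read from both alleles in MidK1 and almost from the variant allele alone elsewhere. Its share was 16.4%, 38.6% and 30.1% at MidK1 days 35, 52 and 56. In MidK2 it was 0 of 31 reads (Wilson interval up to 11.03%), 54.5%, 0.971% and 1.86%, and the MidK2 day 22 value rests on 2 sites listed only there, at 91.7 and 90.9%; at sites listed in at least 6 libraries it was 4.76%. LowK had 4.76%, 0.820% and 2.17%, each with 1 reference read, and no site was listed with enough reads in MEF1 or MEF2. At G49023139T the values were 20, 39.1 and 40% in MidK1, 4.76, 0 and 0% in MidK2 at days 22, 29 and 36, and 4.76, 2.86 and 0% in LowK, so MidK1 and the other courses did not overlap at this site. At how many sites of other genes this held was not counted.

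**Figure D2:**
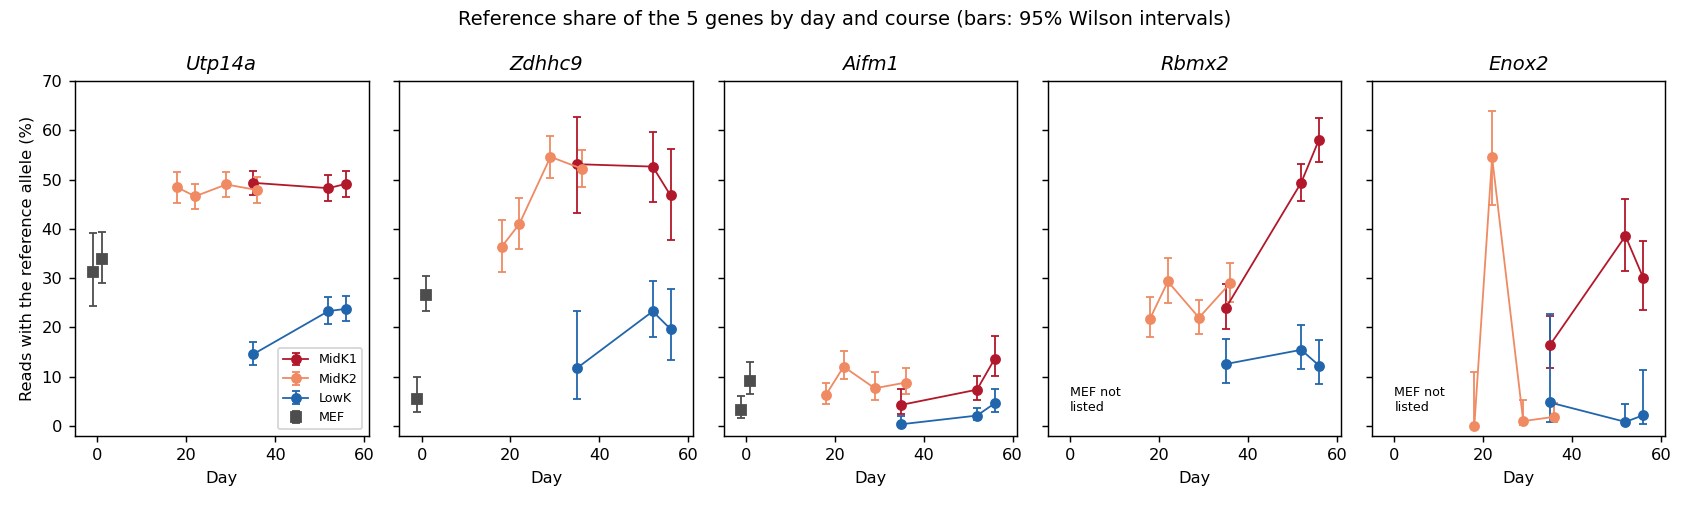
Reference share (%) of each gene against day, with 95% Wilson intervals, for MidK1, MidK2, LowK and the MEF libraries at day 0. Utp14a is near 49% in all Shield1 libraries, Zdhhc9 is highest in MidK1 and MidK2, Aifm1 stays under 14%, and Enox2 is high in MidK1 and at MidK2 day 22, where 2 sites listed only there carry the value.

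Whether the change differs with Shield1 was asked by setting MidK1 against LowK on the same day, at sites listed in both libraries. A gene was called where Fisher's exact test on the summed reads, two-sided and adjusted by Benjamini-Hochberg over all genes of the pair, gave an adjusted p under 0.05 and the shares differed by at least 20 percentage points. At day 35 the background was 7.23% of the 235 genes called higher in MidK1, and 2 of the 5 members were called. Utp14a had 48.7% in MidK1 and 14.5% in LowK over 11 shared sites, 34.2 points higher (95% Newcombe interval 30.7 to 37.6, adjusted exact p = 7.83e-67). Zdhhc9 had 53.1% in MidK1 and 11.8% in LowK, 41.4 points higher (26.1 to 52.9, adjusted exact p = 3.67e-06). Rbmx2 was 9.09 points higher (adjusted exact p = 0.0293) and Aifm1 3.93 points higher (adjusted exact p = 0.00849), both below the size limit. Enox2 shared 1 site and differed by 15.2 points (interval -4.70 to 28.9, adjusted exact p = 0.321).

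At day 52, with 8.61% of 244 genes called higher in MidK1, 4 of the 5 members were called. Utp14a had 48.1% in MidK1 and 23.3% in LowK, a difference of 24.8 points (adjusted exact p = 1.37e-31). The difference was 31.9 points for Zdhhc9 (49.6% in MidK1, 17.7% in LowK, adjusted exact p = 1.41e-07) and 29.2 points for Rbmx2 (44.6% in MidK1, 15.4% in LowK, adjusted exact p = 3.79e-14). Enox2 showed the widest gap, 40.1 points (40.9% in MidK1, 0.820% in LowK, adjusted exact p = 3.45e-16). Aifm1 lay 5.06 points higher (7.36% in MidK1, 2.30% in LowK, adjusted exact p = 0.00123), below the size limit. With only the shared site of highest coverage, which is the repeat site for Rbmx2, the day 52 differences of Utp14a (18.4 points), Zdhhc9 (24.1) and Rbmx2 (12.97) were no longer called.

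Day 56 was known when the genes were chosen and is given without a test. MidK1 exceeded LowK there by 41.2 points at Rbmx2, 33.5 at Enox2, 27.1 at Zdhhc9, 24.8 at Utp14a and 9.05 at Aifm1, against 9.05% of 243 genes that differed by 20 points or more in that direction. Over the 3 days the difference averaged 33.5 ± 7.24 points for Zdhhc9, 27.9 ± 5.43 for Utp14a, 26.5 ± 16.2 for Rbmx2, 29.6 ± 12.9 for Enox2 and 6.02 ± 2.69 for Aifm1 (SD, n = 3 days). For 4 of the 5 genes, all but Aifm1, the 3 MidK1 days lay above all 3 LowK days, as did 27.9% of 219 genes; the choice of members used part of this contrast, so the count is a description. The median difference over all genes was 2.00, 1.92 and 2.90 points at days 35, 52 and 56.

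**Figure D3:**
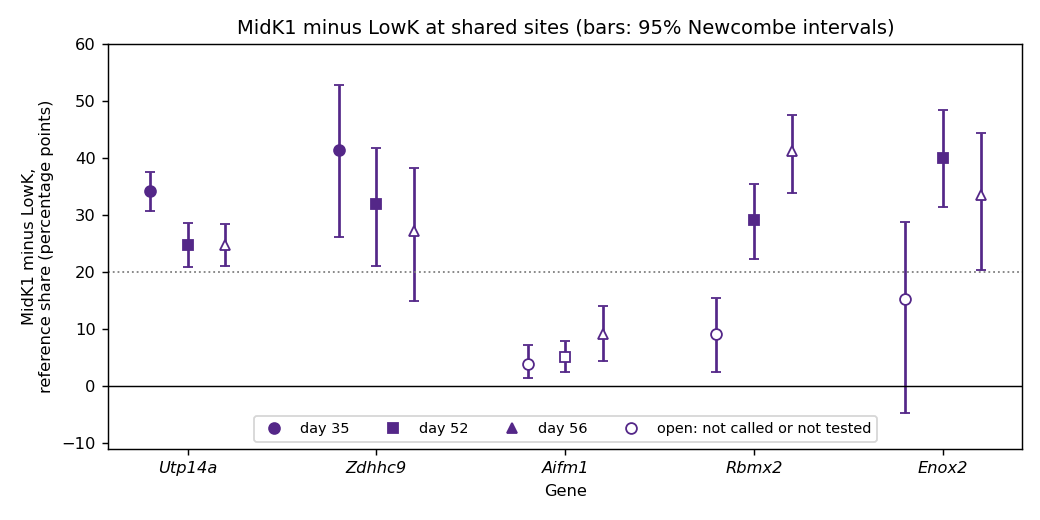
Difference in reference share, MidK1 minus LowK (percentage points), for each gene at days 35, 52 and 56, with 95% Newcombe intervals; filled symbols are called, and open symbols are not called or, at day 56, not tested. Utp14a and Zdhhc9 lie above the dotted line at 20 points on all 3 days, Rbmx2 and Enox2 at days 52 and 56, and Aifm1 on none.

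Set against the fibroblasts, Zdhhc9 was called and Aifm1 was not; Utp14a, the other member with sites in the MEF libraries, is described without a test. Because all MidK1 and LowK libraries were set against MEF1, and all MidK2 libraries against MEF2, these results share their baseline. Zdhhc9 was called higher in all 3 MidK1 libraries. It had 53.1% in MidK1 day 35 and 4.69% in MEF1, 48.4 points higher (adjusted exact p = 1.54e-10, with 8.5% of 153 genes called higher). At day 52 it was 42.4 points higher (adjusted exact p = 1.64e-11, background 12.9%), and at day 56 it was 39.4 points higher (adjusted exact p = 1.06e-07, background 14.1%). In MidK2 it was 16.4 points higher than MEF2 at day 18, below the size limit (adjusted exact p = 1.65e-05, background 1.59%). That value depends on the sites that behaved differently: it was 25.0 points at sites listed in all 12 libraries, 28.4 at the single shared site of highest coverage, 24.6 at a coverage minimum of 50 and 24.7 without 2 of the sites above 70%, and 20.7 points against MEF1, called in each of these. It was called at days 22, 29 and 36, by 30.7, 33.6 and 33.9 points (adjusted exact p at most 4.58e-21, backgrounds 9.63%, 9.94% and 10.4%). In LowK the differences from MEF1 were 7.08, 5.64 and 15.1 points at days 35, 52 and 56, none of them called (adjusted exact p = 0.412, 0.334 and 0.0315, backgrounds 1.23%, 1.76% and 4.91%). At day 56 the interval of 4.48 to 24.7 points lay above 0.

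Utp14a, already read from both alleles in fibroblasts, differed from MEF by under 20 points in every library. These differences are described only. Its share was 16.7, 17.6 and 17.0 points higher in MidK1 than in MEF1, with 95% Newcombe intervals of 8.24 to 24.3, 9.09 to 25.2 and 8.55 to 24.7. In MidK2 it was 15.6, 12.1, 15.1 and 12.98 points higher than in MEF2. LowK went the other way at days 35, 52 and 56, by -15.0 points (interval -23.4 to -7.43), -6.48 (-15.0 to 1.25) and -8.36 (-16.8 to -0.68). At the single shared site of highest coverage LowK was instead 6.66 and 8.49 points above MEF1 at days 52 and 56, and MidK1 day 52 exceeded MEF1 by 4.25 points. With sites that name Utp14a alone, which leaves 2 sites per pair, MidK1 was 22.0, 24.2 and 22.1 points above MEF1, and MidK2 was 24.5 points above MEF2 at day 18 and 27.6 points at day 29. Aifm1 exceeded MEF by 10.7 points at MidK1 day 56 (adjusted exact p = 0.000143) and by 10.9 points at MidK2 day 22 (adjusted exact p = 1.93e-08), and by at most 6.53 points elsewhere. Over all genes the median difference from MEF was 3.88 points at MidK1 day 56 and 7.95 points at MidK2 day 22. In MidK2 day 22, 36.1% of the other genes had a lower share than Aifm1. MEF2 and MEF1 differed by 2.98 points at Utp14a, -4.50 at Zdhhc9 (adjusted exact p = 0.0348) and -2.28 at Aifm1, and none of 174 genes was called between them.

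Between neighbouring days of a course, Rbmx2 and Enox2 in MidK1 were the members called. In MidK1 from day 35 to day 52, Rbmx2 rose by 25.1 points (49.0% at day 52, 23.9% at day 35, adjusted exact p = 3.81e-12) and Enox2 by 22.7 points (38.6% at day 52, 15.9% at day 35, adjusted exact p = 7.14e-05), where 2.56% of 234 genes were called higher. The background was 0.424% at MidK1 day 56 against day 52, 2.1%, 0.357% and 0.345% along MidK2, and 1.23% and 0.395% along LowK. The median difference over all genes was 0.106 and 2.37 points along MidK1, 3.53, -0.0658 and -2.38 along MidK2, and 0.448 and 1.11 along LowK. Utp14a differed by -0.62 points (interval -4.36 to 3.12) and Zdhhc9 by -7.34 points (-21.5 to 7.22) at MidK1 day 52 against day 35. Aifm1 lay 6.29 points higher at MidK1 day 56 than at day 52 (adjusted exact p = 0.0285), below the size limit, and Rbmx2 9.08 points higher, which is described only. In MidK2, Rbmx2 was 14.7 points higher at day 22 than at day 18 (adjusted exact p = 1.86e-05) and Aifm1 5.77 points higher (adjusted exact p = 0.00606), while Utp14a moved by at most 3.35 points between neighbouring days. Aifm1 then lay 5.49 points lower at day 36 than at day 29 (adjusted exact p = 0.00166). In LowK, Utp14a was 8.79 points higher at day 52 than at day 35 (adjusted exact p = 5.41e-05), and the other members moved by at most 3.18 points, with adjusted exact p of 0.129 or more where tested. With only the shared site of highest coverage, which is the repeat site for Rbmx2, the rise was 13.3 points at Rbmx2 and 19.1 at Enox2. Neither was called. With sites at least 200 bases apart Enox2 alone was called (20.2 points). Without the repeat site, a choice made after seeing the values, both rises were called.

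No member was called between the Shield1 courses at nearly matched days, although adjusted exact p was low at Zdhhc9 and Enox2. MidK2 day 36 against MidK1 day 35 gave 34.2% in MidK2 and 53.1% in MidK1 for Zdhhc9, -18.9 points (adjusted exact p = 0.0120), and 1.86% in MidK2 and 16.4% in MidK1 for Enox2, -14.5 points (adjusted exact p = 1.63e-06). Neither reached the size limit, and 1.22% of 246 genes were called lower. Utp14a, Rbmx2 and Aifm1 differed by at most 1.74 points.

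Read amounts were compared only within a gene, at sites listed in all 12 libraries. Per 10000 reads at 699 such sites, Utp14a had 60.03 ± 2.21 reference reads in MidK1 and 17.7 ± 3.53 in LowK (SD, n = 3 days each), 3.40-fold higher. Its variant reads were 64.0 ± 3.49 in MidK1 and 65.3 ± 5.17 in LowK, a ratio of 0.981, and its total coverage was 124 ± 5.70 in MidK1 and 82.9 ± 3.31 in LowK, a ratio of 1.496. For Zdhhc9 reference reads were 5.34 ± 0.991 in MidK1 and 1.56 ± 0.790 in LowK, and variant reads 5.81 ± 0.214 in MidK1 and 8.07 ± 1.91 in LowK. The reference reads of Aifm1 were 2.16 ± 1.02 in MidK1 and 0.689 ± 0.484 in LowK, and its variant reads 25.4 ± 8.71 in MidK1 and 28.8 ± 4.84 in LowK. The median ratio of MidK1 to LowK over all 131 genes with such sites was 0.928 for coverage and 0.856 for variant reads, and 1.61 for reference reads over the 127 genes that had them in both. For Utp14a the fibroblasts had 15.4 variant and 7.01 reference reads in MEF1, and 18.8 variant and 9.81 reference reads in MEF2, so both alleles had more reads in the MidK1 libraries. The same held for LowK, which had 13.6, 19.7 and 19.7 reference and 69.9, 59.7 and 66.2 variant reads at days 35, 52 and 56. The lower reference share of LowK than of MEF thus went with more reference reads and with still more variant reads. RNA per cell and the number of cells with a second active allele cannot be told apart in these bulk libraries.

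**Figure D4:**
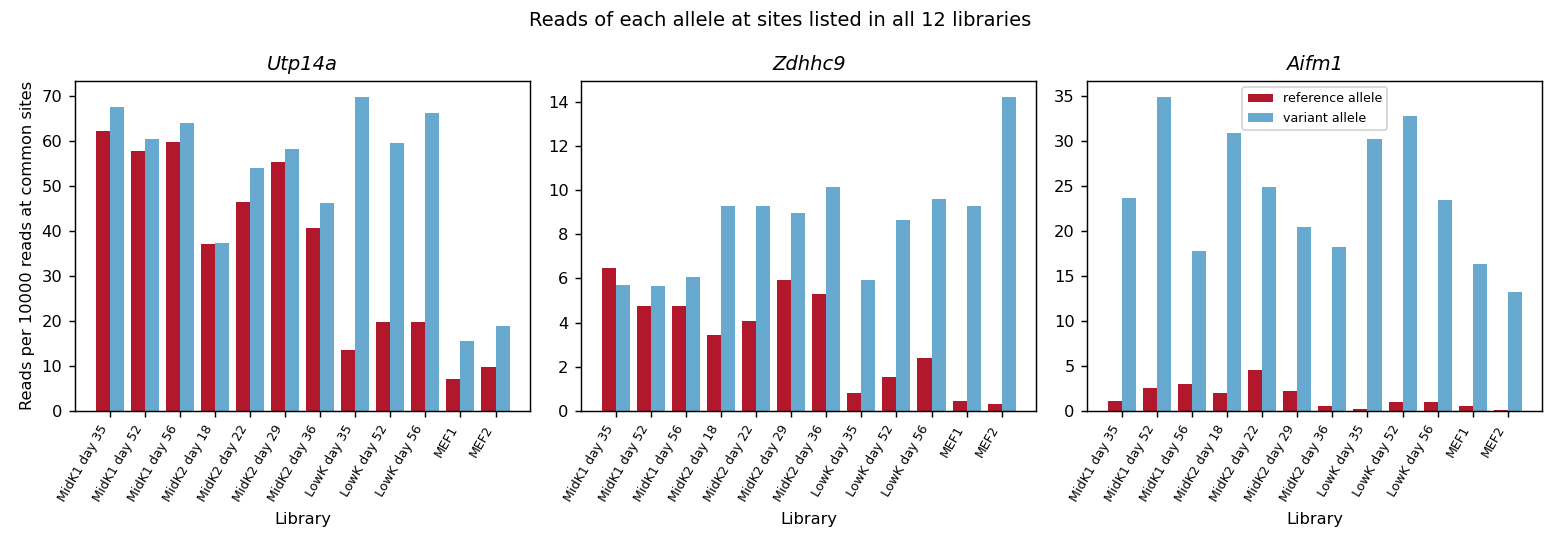
Reference and variant reads per 10000 reads at sites listed in all 12 libraries, for Utp14a, Zdhhc9 and Aifm1 in each library; bars start at 0. Utp14a variant reads are similar in MidK1 and LowK, at 64.0 and 65.3 on average, while its reference reads are 60.03 in MidK1 and 17.7 in LowK.

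Genes between and around the members were not all read from both alleles. Between 47 and 51 Mb, 15 genes had sites, 10 of them besides the members, and 5 of these were listed in at least 6 libraries. Bcorl1, a transcriptional corepressor whose start lies 84.5 kb from that of Utp14a, had 49.8, 52.8 and 47.9% in MidK1, 28.2, 40.7, 36.2 and 51.2% in MidK2, and 4.35 and 12.8% in LowK at days 52 and 56. The MidK2 sums of Bcorl1 include sites at 92.6 to 94.4%, and at its 4 sites listed in at least 6 libraries MidK2 had 33.6, 18.4, 32.3 and 45.8%. Bcorl1 was called higher in MidK1 at day 52 by 47.3 points on 1 shared site (adjusted exact p = 0.00130) and at day 56 by 35.1 points (adjusted exact p = 1.66e-06). Zfp280c, a zinc finger gene between Aifm1 and Rbmx2, had 2.81, 4.48 and 2.71% in MidK1, 9.35, 10.9, 1.06 and 10.1% in MidK2, and 4.55, 2.21 and 1.89% in LowK. The MidK2 sums at days 18, 22 and 36 include sites at 90 to 95%. At sites listed in at least 6 libraries Zfp280c had 2.80, 4.95, 0.952 and 1.47% in MidK2. At Zfp280c MidK1 and LowK differed by at most 2.27 points at shared sites, with adjusted exact p of 0.554 or more. At MidK1 days 52 and 56, Aifm1 and Zfp280c thus had lower shares than Utp14a and Bcorl1 on one side and Rbmx2 and Enox2 on the other. The picture was less clear at MidK1 day 35, where Enox2 was at 16.4% and Rbmx2 without the repeat site at 17.7%. Utp14a and Bcorl1 were at 49.3 and 49.8% in that library, and Aifm1 and Zfp280c at 4.28 and 2.81%.

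Beyond Enox2, the processed pseudogene Gm14719 was at 0 to 7.27% in the 11 libraries that listed it, at sites listed in at least 6 libraries. Its sums over all sites at MidK2 days 29 and 36, 13.8 and 15.9%, include 1 further site at 94.6 and 93.1%. The long noncoding RNA gene Firre, which is itself known to escape X inactivation, had 24.8, 19.8 and 28.8% in MidK1, 40.9, 25.3, 28.3 and 25.2% in MidK2, and 4.87, 8.74 and 9.15% in LowK. These Firre sums mix unlike sites, from 0% up to 88.4% in MidK1, 94.3% in MidK2 and 78.3% in LowK, with site medians of 6.90, 15.97 and 17.2% in MidK1, 5, 5.72, 1.52 and 7.14% in MidK2, and 0, 6.67 and 5.13% in LowK. At shared sites Firre was 6.47, 12.3 and 11.2 points higher in MidK1 than in LowK at days 35, 52 and 56 (adjusted exact p = 0.000240, 0.00216 and 1.65e-07), below the size limit. Upstream of Zdhhc9, Ocrl, an inositol phosphatase gene, was at 0% in MidK1 day 35, at 0, 43.5, 22.7 and 0.952% in MidK2, and at 1.45% in MEF1 and 2.28% in MEF2, and was not listed in LowK. The Ocrl value of 43.5% at MidK2 day 22 includes sites up to 94.7%, and at the 5 sites shared with MEF2 it was 16.0% in MidK2 day 22 and 0.662% in MEF2.

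**Figure D5:**
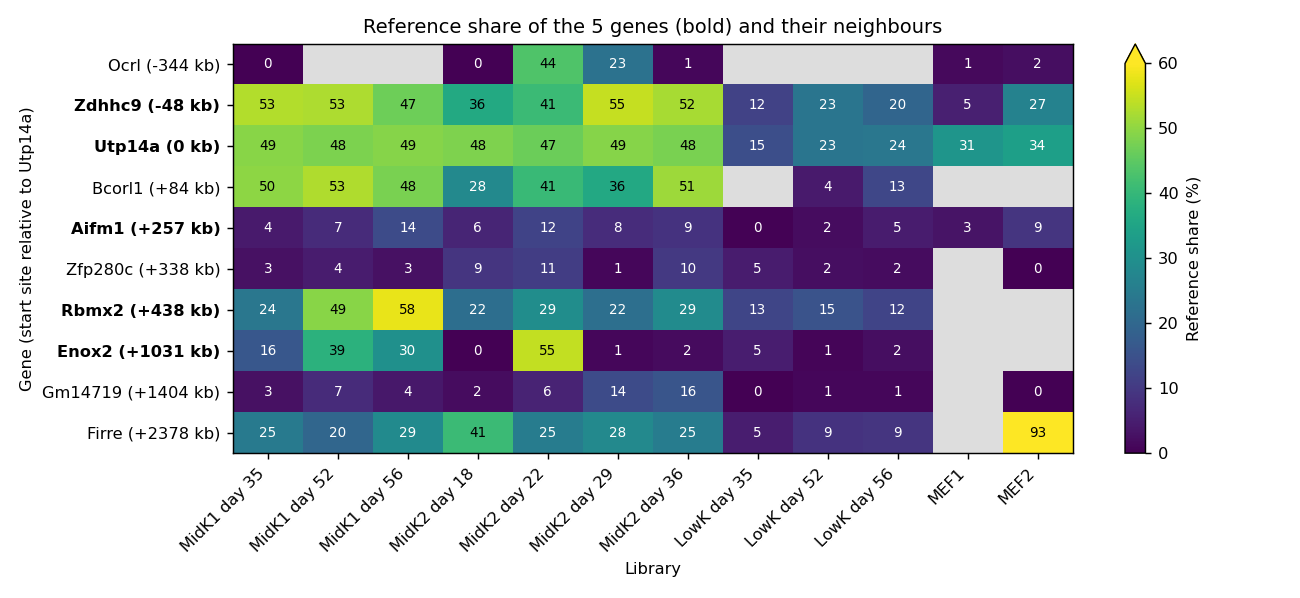
Reference share (%, colour) of the 10 genes between 47 and 51 Mb listed in at least 6 libraries, each summed over all its sites in that library, in chromosome order, one column per library; grey means not listed. Aifm1 and Zfp280c stay dark (low) in all 3 MidK1 libraries between Bcorl1 and Rbmx2; the Firre value of MEF2, 92.6% at 1 site, is beyond the colour scale.

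Other genes known to escape X inactivation were listed for comparison. Over the 11 listed escape genes, of which 7 or 8 were measured per library, the median share was 47.8, 42.3 and 45.5% in MidK1, 44.4, 48.8, 56.3 and 46.2% in MidK2, 28.4, 40.2 and 41.9% in LowK, and 40.0% in MEF1 and 47.5% in MEF2. MidK1 against LowK called 1 of 7 measured list genes on day 35 (1810030O07Rik, named after its value was seen), none of 7 on day 52 and none of 8 on day 56, against the backgrounds of 7.23%, 8.61% and 8.64%. The measured list genes still tended towards a higher share in MidK1. Their median gap to LowK came to 10.2 points on day 35, 11.7 on day 52 and 7.10 on day 56. Among all genes of these pairs the median gap was smaller, 2.00, 1.92 and 2.90 points. Whether the list differed from all genes in this gap was not tested. No test set Utp14a against that list.

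By mean absolute difference in reference share over the libraries shared, the gene most like Zdhhc9 among 192 was Utp14a, at 6.52 points over 12 libraries, followed by Dynlt3 (7.73) and Alg13 (7.98, 10 libraries). This likeness depended on the sites. With sites listed in at least 6 libraries Utp14a ranked 2 of 189 (8.06 points) behind Alg13 (7.17), and with sites listed in all 12 libraries it ranked 9 of 100 (12.4 points), where Gpkow (4.97) came first. For Utp14a the order was Zdhhc9, Alg13 (7.32) and Las1l (8.83), while with sites in all 12 libraries it was the escape genes Pbdc1 (8.72), Ddx3x (9.04) and Eif2s3x (9.06). Aifm1 was closest to Zmym3 (2.07), Rab9 (2.31) and Pgrmc1 (2.58), and with sites in at least 6 libraries to Araf (0.923), with Zmym3 at rank 78. Rbmx2 came closest to Lamp2 (7.14), Tfe3 (7.37) and Gpm6b (7.77), and Lamp2 stayed first with sites in at least 6 libraries (6.02). Enox2 came closest to Klhl13 (10.2), Sept6 (10.8) and Cul4b (11.4), with Klhl13 (4.70) and Sept6 (4.76) in the same places at sites in at least 6 libraries.

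The promoters of Utp14a and Zdhhc9, the members called higher in MidK1 than in LowK on both tested days, are shown from 250 bases before to 50 after the start in RefSeq (GRCm38.p6), in the direction of the gene and with each CG in capitals.
Utp14a, chrX:48256684-48256983, plus strand: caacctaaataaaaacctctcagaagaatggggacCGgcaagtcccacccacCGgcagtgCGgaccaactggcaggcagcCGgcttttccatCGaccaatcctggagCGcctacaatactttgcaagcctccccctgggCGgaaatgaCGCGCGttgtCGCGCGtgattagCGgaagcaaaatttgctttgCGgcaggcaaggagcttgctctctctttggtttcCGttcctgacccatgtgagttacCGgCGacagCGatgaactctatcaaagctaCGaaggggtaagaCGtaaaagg
Zdhhc9, chrX:48208653-48208952, minus strand: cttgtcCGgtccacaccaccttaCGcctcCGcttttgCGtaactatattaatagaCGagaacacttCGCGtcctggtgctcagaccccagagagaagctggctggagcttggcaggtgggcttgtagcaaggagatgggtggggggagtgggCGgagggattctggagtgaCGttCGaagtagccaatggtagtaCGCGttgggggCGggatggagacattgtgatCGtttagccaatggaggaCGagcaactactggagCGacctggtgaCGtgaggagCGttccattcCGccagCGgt

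The Utp14a promoter held 21 CG pairs and that of Zdhhc9 20, and those of Aifm1, Rbmx2 and Enox2 held 21, 18 and 4, where the median of 32851 mouse promoters and of 1223 X promoters was 7. Enox2 thus stood apart from the other 4 members in CG count. Searched on both strands, the letters CCAAT occurred 2 times at Zdhhc9, 1 time each at Utp14a, Aifm1 and Rbmx2, and 3 times at Enox2, with 37.4% of all promoters holding them. The YY1 core CCATNTT occurred in none of the 5 (16.1% of promoters). The ETS letters CCGGAAG (8.86% of promoters) occurred 1 time at Rbmx2 and at no other member. No match of one motif overlapped a match of another.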

How the data were processed

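The deposited tables list variants on the X chromosome. Per the series design the authors called them in CLC Genomics Workbench (Basic Variant Call), and per the submitters' processing notes the build was mm10. Per the file headers, each variant has a count of variant reads and a read coverage, which were used as raw counts, a frequency in percent, and, for the MEF1, LowK and MidK1 libraries, an average base quality score. The deposited frequency equalled 100 times count over coverage within 5.04e-09 points. The aligner, caller settings, strain, parent of origin, sex of the cells and the cultures behind MEF1 and MEF2 were not given in the sources used here.

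Single-base variants with coverage of at least 20 were kept, with 69 second alleles at a position dropped. Of 655 positions naming several genes, 373 had an exon of 1 of them in GENCODE M21 and were assigned to it. The reference share is 100 times coverage minus count, over coverage, with 95% Wilson intervals. Libraries were compared in 22 pairs at sites listed in both with the same allele, by two-sided Fisher's exact tests on reads summed per gene, Benjamini-Hochberg adjustment over all genes of the pair and 95% Newcombe intervals. The test was also run on simulated data, with independent reads drawn per gene at the real coverage. Those data lack reads shared between nearby sites and differences between sites of a gene. The simulation therefore cannot show how these affect the p-values. Genes named are the 5 members, genes between 47 and 51 Mb listed in at least 6 libraries, 11 escape genes as counts, and the 3 genes most like each member. The members, gene lists and tests were chosen with earlier results of these data known. Tests planned on values that had served in that choice (Utp14a in fibroblasts, Utp14a and Rbmx2 at day 56) are not reported. Sequence windows are at the 2 sites naming 1 gene with most coverage among those in the most libraries. Python 3.11.15, numpy 2.4.6, pandas 2.3.3, scipy 1.17.1 and matplotlib 3.10.9 were used. Alternatives changed the coverage minimum, sites, size limit, base quality and fibroblast library.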

Additional observations from a re-analysis of the deposited data

Results flagged for a closer look

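The difference between the courses with and without Shield1 was past the test on 6 occasions, as MidK1 minus LowK in percentage points of reference share at shared sites. At day 35 it was 34.2 for Utp14a and 41.4 for Zdhhc9. At day 52 it was 24.8 for Utp14a, 31.9 for Zdhhc9, 29.2 for Rbmx2 and 40.1 for Enox2. Each compares the reads of 1 library with those of another.

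A variant outside the single-base sites also carried a signal. Rbmx2 has a 2-base substitution, listed with at least 20 reads in the MidK1 and MidK2 libraries and not listed in LowK or MEF. Its reference share was 51.7, 75.0 and 80.6% at MidK1 days 35, 52 and 56, the same order of days as in the sum of the single-base sites. Not every single-base site had that order: C48706359G was at 5.13, 29.6 and 21.4%. In MidK2 it was 25.7, 31.8, 62.8 and 42.9% at days 18, 22, 29 and 36. Coverage was 22 to 72 reads, and the difference between the courses was not tested.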

How the results depend on the processing

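Of 5 families of comparisons, the count of member calls moved by over 1.5 times as follows. MidK1 against LowK at days 35 and 52 gave 6 calls, 3 at a coverage minimum of 50 (where 5 gene results could be tested) and 3 with the single shared site of highest coverage. Later against earlier days gave 2 calls, 0 at a coverage of 50, 0 with the single site, 1 with sites at least 200 bases apart and 0 with sites in all 12 libraries, where Rbmx2 and Enox2 have none. Without the Rbmx2 repeat site, its single site at MidK1 day 52 against day 35, this comparison gave 2 calls. Reprogrammed libraries against MEF gave 6 calls, all of Zdhhc9, and 10 at a size limit of 10 points. MidK2 day 36 against MidK1 day 35 gave 0 calls and 2 at 10 points. With the single site Rbmx2 at day 35 differed by -7.08 points, against 9.09 in the sum. That single site is the repeat site, at 60.4% in MidK1 day 35 and 67.5% in LowK day 35. Why the repeat site behaved unlike the others was not tested. No call changed direction in any alternative. Leaving out each day, the mean MidK1 minus LowK difference was 29.5 to 36.6 points for Zdhhc9, 24.8 to 29.5 for Utp14a, 4.50 to 7.06 for Aifm1, 19.1 to 35.2 for Rbmx2 and 24.4 to 36.8 for Enox2. Alternatives chosen after seeing the data (all sites naming the gene, without the Rbmx2 repeat site, without 2 Zdhhc9 sites above 70%) gave 6 calls for MidK1 against LowK each. As the median over sites, the share left its interval in 9 of 10 Rbmx2 libraries and in 0 of 12 of Utp14a. The 3 shared days pair MidK1 with LowK. Day 56 was known when the genes were chosen, and an exact two-sided sign-flip test over the other 2 day pairs gave p = 0.5 for every member, the smallest it can give.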

Other observations

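Near the other variants of the repeat, Rbmx2 tables also list insertions of the same letters. The insertion TAGAAG was listed with a reference share of 81.8, 77.2, 88.0 and 86.7% at MidK2 days 18, 22, 29 and 36 and 86.5% at LowK day 52. Utp14a has a deletion of 1 T listed in MidK2 alone, with 66.7, 80.0, 71.8 and 75.0% at days 18, 22, 29 and 36. In Zdhhc9 an insertion of TT was listed at 83.0, 76.9 and 79.3% in MidK1, 78.3, 81.2, 76.3 and 83.5% in MidK2, 66.7 and 75.0% at LowK days 52 and 56, and 71.0% in MEF1 and 60.3% in MEF2. These shares count every read without TT, at a coverage of 29 to 79 reads. An insertion of TTT was also listed in Zdhhc9, at 88.7% in MidK1 day 52, 85.3% in LowK day 52 and 90.5% in MEF2. In MidK2 the TTT insertion was at 87.8, 87.5, 89.5 and 88.6% at days 18, 22, 29 and 36. The lowest Shield1 value for TT, 76.3% at MidK2 day 29, lay close to the 75.0% of LowK day 56. MidK1 overlapped MidK2, and MEF1 lay between the LowK days. The TT insertion was not tested.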
